A study of Mus musculus with 4 samples.

Results

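The 9 genes described here, Hif3a, Hnf4a, Setbp1, Egfl7, Gfra1, Bcam, Gucy1a3, Cdc42bpa and Rftn2, were chosen from the 23361 genes of the table because their levels were higher in both libraries of young early T lineage progenitors (ETP) than in both libraries of old ETP. That difference is therefore given as a description and was not tested. ETP are the most immature progenitors of the murine thymus, sorted here by flow cytometry as Lin- CD44+ CD25- CD117+ thymocytes. Whole transcriptome sequencing covered 4 libraries, 2 per age. The young libraries came from female C57BL6 mice aged 4 to 6 weeks and the old libraries from female C57BL6 mice aged 72 weeks. The labels name no treatment and no modified gene for either age. Nothing in the labels ties the replicate libraries to different mice, and the spread between them may be technical. Several of the 9 genes also stood in the selection that the study itself drew from these libraries, which is not independent evidence of their direction.

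The genes belong to no single pathway. Their products are transcription factors and a chromatin partner, proteins outside the cell or at its surface, and enzymes or membrane proteins that act inside it. Hif3a encodes a hypoxia-inducible factor subunit, Hnf4a a nuclear receptor best known from liver and gut, and Setbp1 a binding partner of the SET protein that is mutated in some myeloid leukaemias. Egfl7 encodes a secreted protein of endothelial and blood stem cells, Gfra1 a co-receptor for the growth factor GDNF and Bcam a laminin receptor that carries the Lutheran blood group. Gucy1a3 encodes a subunit of the nitric oxide receptor soluble guanylate cyclase, Cdc42bpa a kinase that acts downstream of the GTPase CDC42, and Rftn2 a raftlin of lipid rafts.

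Depth was between 4839341 and 16658864 fragments per library, and 3 fragments, the most that a count of 0 allows, corresponded to between 0.176 and 0.654 normalized CPM (fragments scaled to a common library size). These limits cover counting error only. The 12 genes of the ETP gate and identity all passed the filter on low values, and their summed level was 4251 and 4973 CPM in young against 4167 and 4707 CPM in old ETP. Summed levels of markers of other cells differed between the ages. The 14 dendritic cell markers summed to 510.4 and 519.8 CPM in young and to 1013 and 3051 CPM in old ETP, and 9 of the 12 that were tested were higher in both old libraries, an order that 16.1% of all tested genes had. The 14 NK and innate lymphoid markers summed to 68.5 and 113.6 CPM in young and to 234.7 and 635.7 CPM in old ETP, and 6 of the 8 tested had the same order. Old replicate 2 was the highest library for both lists. The part of these markers in the difference of the 9 genes was not tested. Of the thymic epithelial, fibroblast, erythroid and B cell markers, between 1 and 2 genes per list were tested and edgeR and DESeq2 called 0. The 12 thymic epithelial markers, of which Foxn1, Krt14 and Cldn4 were at 0, summed to 30.3 and 38.4 CPM in young ETP. In old ETP they summed to 35.2 and 98.3 CPM, highest in old replicate 2. The tested one, Ly75, had a log2 fold change of -0.89. That value came to 0.02 without old replicate 2 and to -1.49 without old replicate 1, so its direction rested on old replicate 2. B cell markers summed to 37.0 and 29.2 CPM in young and 33.7 and 60.1 CPM in old ETP. Only 1 of the 10 was tested, with a log2 fold change of 0.15. With a filter of 0.5 FPKM in 1 library the median of the B cell list was -3.67, and with no filter -0.69. The call of 0 therefore does not cover most B cell markers. Fibroblast markers summed to 319.4 and 378.0 CPM in young against 319.6 and 228.5 CPM in old ETP. Erythroid and megakaryocyte markers summed to 26.2 and 26.1 against 29.0 and 22.9 CPM. In libraries made from pooled cells, fewer cells of a type and less RNA per cell cannot be told apart.

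All 9 genes had non-overlapping levels between the ages, which the choice of the genes fixed. Over the 10080 genes tested, 15.5% had both young libraries above both old ones, and 14% did among the 17112 genes with any fragment. Mean levels ran from 4.67 CPM (Bcam) to 116.7 CPM (Hnf4a) in young ETP and from 0.493 CPM (Bcam) to 34.3 CPM (Hnf4a) in old ETP. The ratio of the means was lowest for Egfl7 at 2.40 and highest for Rftn2 at 10.7, with a median of 3.79. The lowest young library stood above the highest old one by 2.31 times for Setbp1, the closest of the 9, and by 7.79 times for Rftn2, the widest. The limit of the rule is a level above that of both old libraries, and the tested gene just short of it was Fbxo45, at 1.00 times. The 9 are not all of the genes inside that limit, which 1565 tested genes passed.

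**Figure D1:**
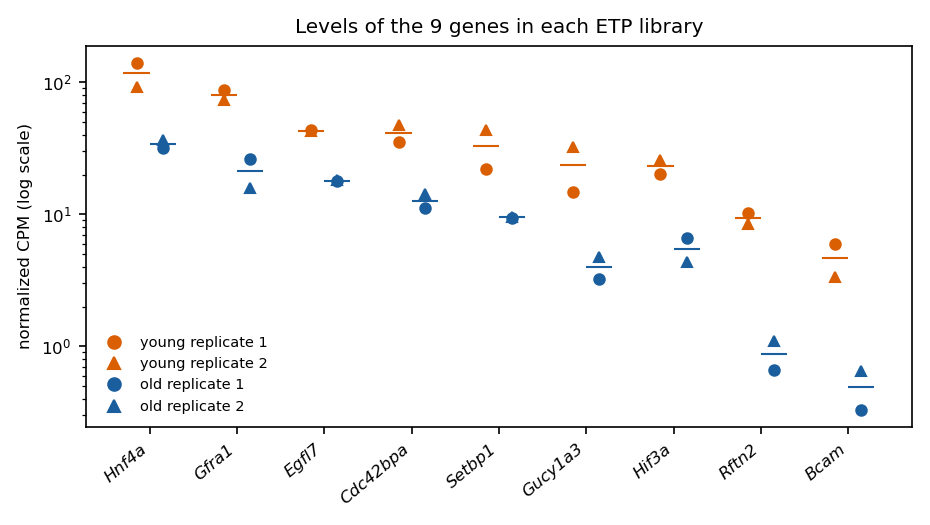
Levels of the 9 genes in each of the 4 libraries, in normalized CPM on a log axis, with young in orange, old in blue, circles for replicate 1, triangles for replicate 2 and short lines for the mean of each age. The young points lie above the old points for every gene, and the old levels of Bcam and Rftn2 sit near 1 CPM or below it.

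Of the 9 genes, 7 passed the filter of at least 1 FPKM (fragments scaled by transcript length and depth) in at least 2 libraries, and Bcam and Rftn2 did not, because only 1 young library reached that level for each. A gene high in young ETP alone can pass this filter through its young libraries, so nothing is read from how many passed. By estimated fold change among the 10080 tested genes, Gucy1a3 ranked 6, Hif3a 9, Gfra1 11, Setbp1 12, Hnf4a 13, Cdc42bpa 15 and Egfl7 39 from the top of those higher in young. The choice of the genes favoured such ranks, which are a description only. In the same edgeR quasi-likelihood test, 0 of all 10080 genes passed an adjusted p of 0.05 in either direction, with 92 genes (0.913%) higher in young and 469 (4.65%) higher in old at an unadjusted p under 0.05. DESeq2 called 15 genes (0.149%) higher in young and 210 (2.08%) higher in old. The median log2 fold change of all tested genes was 0.03.

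**Figure D2:**
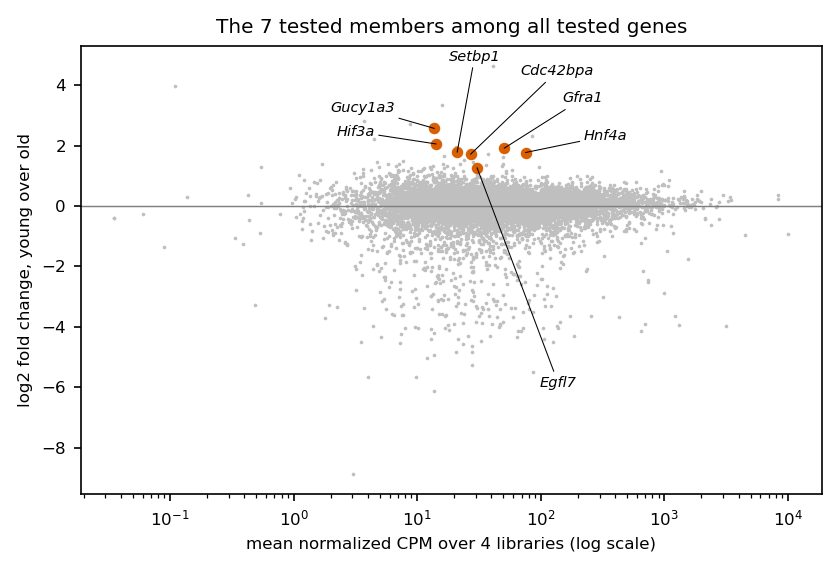
Log2 fold change of young over old against the mean normalized CPM over the 4 libraries (log scale) for all 10080 tested genes in grey, with the 7 of the 9 genes that were tested in orange. The 7 lie between 1.26 (Egfl7) and 2.57 (Gucy1a3) above a median of 0.03 for all genes, a position that the choice of the genes sets.

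Compared per transcript length, the genes fell into a higher and a lower set. In young ETP the mean FPKM was 16.9 for Egfl7, 11.3 for Hnf4a and 10.4 for Gfra1. The ranges of these 3 over the 2 young libraries overlapped, from 12.2 to 21.6, from 6.42 to 16.1 and from 6.98 to 13.8 FPKM. Within each young library Egfl7 was above both others, at 21.6 against 16.1 and 13.8 FPKM in replicate 1 and 12.2 against 6.42 and 6.98 FPKM in replicate 2. Hnf4a and Gfra1 changed places between the young libraries, so their order is not separated. The other 6 were lower, at 1.83 for Gucy1a3, 1.80 for Cdc42bpa, 1.27 for Hif3a, 1.18 for Setbp1, 1.06 for Rftn2 and 0.870 for Bcam. Among these neighbours, Cdc42bpa was above Hif3a within young replicate 1 (1.97 against 1.43 FPKM) and replicate 2 (1.62 against 1.10 FPKM). Rftn2 was likewise above Bcam within both, at 1.42 against 1.30 and 0.702 against 0.439 FPKM. The other neighbours changed places between the young libraries. In old ETP, Egfl7 (mean 5.67 FPKM) stayed first, followed by Hnf4a (2.53) and Gfra1 (2.31), while Rftn2 (0.0743) and Bcam (0.0646) came last. Hnf4a and Gfra1 again changed places, at 2.94 against 3.35 FPKM in old replicate 1 and 2.12 against 1.27 FPKM in old replicate 2. The deposited FPKM summed to more in the deeper libraries, so FPKM orders genes within an age here, and the ages are compared on CPM.

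Hif3a lies at chr7:17031507-17062427 on the minus strand (GRCm38). Its product is the least studied of the hypoxia-inducible factor alpha subunits, pairs with ARNT, and has short forms that restrain the other alpha subunits. Hif3a was at 20.4 and 25.8 CPM in young replicates 1 and 2 and at 6.57 and 4.36 CPM in old replicates 1 and 2, from 348, 161, 79 and 20 fragments. Both young libraries were several times the level of either old library, and the old libraries differed by 1.51 times from each other. Mean levels had a ratio of 4.22, and the fitted log2 fold change of young over old was 2.05 ± 0.40 (SE, n = 2 libraries per age). The 250 bases before the RefSeq start of Hif3a (GRCm38.p6), chr7:17062428-17062677 on the minus strand, are shown as the window of its only RefSeq start, with the single match to the ETS letters GGAAGT in capitals.
Hif3a promoter: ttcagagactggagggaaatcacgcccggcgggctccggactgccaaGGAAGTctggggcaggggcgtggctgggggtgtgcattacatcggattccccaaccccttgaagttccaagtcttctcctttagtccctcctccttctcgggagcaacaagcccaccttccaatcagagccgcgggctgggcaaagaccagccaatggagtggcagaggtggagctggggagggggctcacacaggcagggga

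The other alpha subunits had other levels. Hif1a, the general oxygen-regulated subunit, was at 9.29 FPKM in young and 5.78 FPKM in old ETP, above Hif3a (1.27 and 0.263 FPKM) at both ages, and its log2 fold change was 0.40 ± 0.28 (adjusted p = 0.999, edgeR). Epas1, the subunit known from endothelium and kidney, was at 0.0342 FPKM in young and 0.0480 FPKM in old ETP. Of 14 other genes for HIF subunits and oxygen sensing, 10 were tested, and 0 passed in either direction by edgeR or DESeq2, with 0 higher in young and 1 higher in old at an unadjusted p under 0.05. That gene was Vhl, whose product marks HIF alpha subunits for degradation, at 22.7 and 20.7 CPM in young against 36.2 and 53.8 CPM in old ETP (log2 fold change -1.05 ± 0.33, adjusted p = 0.683). The median of the 10 was -0.08, beside 0.03 for all genes. Among 22 tested hypoxia target genes the median was -0.15, 0 passed by either tool, and 3 had an unadjusted p under 0.05, all higher in old. They included Ndrg1, a stress-response gene (log2 fold change -0.79), and Bhlhe40, a repressor induced in low oxygen, which was at 37.6 and 7.21 CPM in young and 154.2 and 70.6 CPM in old ETP (-2.31). Ldha, the lactate dehydrogenase subunit with the highest level of the list, had a log2 fold change of -0.18.

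Hnf4a, at chr2:163506808-163572910 on the plus strand, was the most abundant of the 9 by CPM. HNF4A directs metabolic genes of hepatocytes, intestinal epithelium and pancreatic islets. Its levels were 140.5 and 92.9 CPM in young and 32.0 and 36.6 CPM in old ETP, from 2401, 580, 385 and 168 fragments. The young libraries differed by 1.51 times and the old by 1.14 times, both less than the 2.54 times between the lowest young and the highest old library. The log2 fold change was 1.77 ± 0.31 and the means had a ratio of 3.40. Hepatocyte genes were at or near 0 in the same libraries. Of 20 hepatocyte genes known to depend on HNF4A, 0 passed the filter and 10 had no fragment in any library, among them Ttr, Apoc3 and Fabp1, while Alb had 0.0585 CPM in young replicate 1 and 0 in the other libraries. The relative Hnf4g was at 0.0585 and 0.160 CPM in young and 0 CPM in old ETP, which is at or under the level of 3 fragments. Of 17 family members and partner factors only Rxra, Rxrb and Nr2f6 were tested, with log2 fold changes of 0.29, 0.11 and -0.21, and the Foxa and Onecut genes were not. None of the 3 passed by edgeR or DESeq2 and 0 had an unadjusted p under 0.05.

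Setbp1, on the minus strand of chromosome 18, has the longest span of the set at 359 kb. The protein binds SET, an inhibitor of the phosphatase PP2A, and gain of SETBP1 is known to favour self-renewal of myeloid progenitors. Setbp1 was at 22.2 and 43.2 CPM in young and at 9.39 and 9.59 CPM in old ETP, from 379, 270, 113 and 44 fragments. The old libraries were close to each other and the young libraries differed by 1.95 times. The log2 fold change was 1.78 ± 0.44 and the ratio of means 3.45, so Setbp1 had one of the larger standard errors of the set. Of 13 tested genes of SET and the PP2A complex, 12 had estimates above 0, beside 53.4% of all tested genes, with a median of 0.12. Both young libraries were above both old ones for 4 of them, beside 15.5% of all genes. Set itself was at 574.6 and 495.3 CPM in young and 502.5 and 405.4 CPM in old ETP (log2 fold change 0.24), and 0 of the 13 passed by either tool or had an unadjusted p under 0.05.

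A wider list of blood stem cell and leukaemia genes, without any of the 9 genes, had 21 tested members. The median log2 fold change was 0.34, 17 of the 21 estimates were above 0 against 53.4% of all genes, and 12 had both young libraries above both old ones against 15.5% of all genes. edgeR and DESeq2 called 0 of them. At an unadjusted p under 0.05 were 2 genes higher in young and 1, not reported here, higher in old ETP. The former were Angpt1, which encodes a ligand of the TIE2 receptor (log2 fold change 0.80), and Erg, an ETS factor of stem cells (0.66). The list was drawn up with results of these data known, so the count describes these libraries only.

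Egfl7, at chr2:26580014-26593120 on the plus strand, encodes a secreted protein that endothelium and blood stem cells release and that can bind Notch receptors. The levels in young ETP were 43.7 and 42.6 CPM, and those in old ETP were 17.9 and 18.1 CPM, from 747, 266, 215 and 83 fragments. Replicates of an age differed by at most 1.03 times, the least of the 9 genes. With a log2 fold change of 1.26 ± 0.29 and a ratio of means of 2.40, Egfl7 had the smallest difference of the set. RefSeq gives 3 starts for Egfl7 with windows that hold different letters, and the stretches before the first and the last of them that lie outside annotated exons of the gene are shown for that contrast. Capitals mark, in the first (chr2:26580833-26581055, plus strand), the ETS letters GGAAGT on either strand, the TCF letters CTTTGA and the RBPJ letters TGGGAA, which run into each other, while E-box matches are not marked. In the last (chr2:26586386-26586629, plus strand) they mark the GC box GGGCGG.
Egfl7 start 1: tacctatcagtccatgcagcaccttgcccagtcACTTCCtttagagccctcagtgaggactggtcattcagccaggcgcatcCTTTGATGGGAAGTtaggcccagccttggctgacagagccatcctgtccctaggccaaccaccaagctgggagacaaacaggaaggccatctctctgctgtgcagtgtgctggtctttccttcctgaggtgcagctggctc
Egfl7 start 3: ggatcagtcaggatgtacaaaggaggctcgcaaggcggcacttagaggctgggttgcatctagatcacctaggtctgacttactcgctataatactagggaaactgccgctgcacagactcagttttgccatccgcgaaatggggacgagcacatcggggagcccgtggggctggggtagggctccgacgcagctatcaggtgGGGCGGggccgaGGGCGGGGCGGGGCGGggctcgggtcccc

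The table does not say which start the fragments came from. The gene also holds miR-126a, at chr2:26591357-26591429, which is intronic in 8 and exonic in 1 of 19 annotated transcripts of Egfl7. Its mature strand miR-126a-3p is shown with the seed, bases 2 to 8, in capitals. The row for this miRNA gene held 0 fragments in all 4 libraries, and mature miRNA was not measured here.
miR-126a-3p: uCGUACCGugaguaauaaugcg

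The relative Egfl8 had the opposite order, at 0.644 and 0.481 CPM in young and 1.66 and 3.70 CPM in old ETP, without passing the filter. Among 9 tested genes of the EGFL7 and Notch list, the median log2 fold change was -0.55, edgeR called 0, and 1 had an unadjusted p under 0.05. That gene, the receptor Notch4, was at 1.99 and 5.77 CPM in young and 19.3 and 44.2 CPM in old ETP (log2 fold change -3.08 ± 0.70, adjusted p = 0.382), and DESeq2 called it at an adjusted p of 0.000558. Notch1, the receptor that ETP require, was at 1273 and 1204 CPM in young against 962.9 and 576.7 CPM in old ETP (0.69 ± 0.35, adjusted p = 0.999). Because Egfl7 is best known from endothelium, 16 endothelial markers were read in the same libraries. Cldn5 and Tie1 were at 0 in all of them, Cdh5 was between 0.0585 and 0.654 CPM, and only Pecam1, Eng and Robo4, which blood progenitors also express, were tested. The 16 markers summed to 278.1 and 301.5 CPM in young and to 284.0 and 190.0 CPM in old ETP.

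Gfra1, at chr19:58235604-58455909 on the minus strand, encodes a lipid-anchored receptor that binds GDNF and presents it to the kinase RET. It was at 87.1 and 73.4 CPM in young and at 26.4 and 15.9 CPM in old ETP, from 1489, 458, 318 and 73 fragments. The 2 old libraries differed by 1.66 times, more than the young libraries at 1.19 times, and both stayed well under the young levels. The ratio of means was 3.79 and the log2 fold change 1.91 ± 0.35. Gfra1 was alone in its family at this level. None of the 10 other GDNF family receptors and ligands passed the filter, Gfra3, Gfral and Pspn had 0 fragments in all libraries, and Ret was at 0.585 and 0 CPM in young and 0.166 and 0 CPM in old ETP. Gdnf had a single fragment, in young replicate 2 (0.160 CPM). Gfra2 was at 2.22 and 5.29 CPM in young and 1.66 and 9.59 CPM in old ETP, so its ages overlapped.

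Bcam, at chr7:19756131-19771016 on the minus strand, was the lowest of the 9 genes. Its product, a member of the immunoglobulin superfamily, binds laminins that contain the alpha 5 chain. Bcam was at 5.97 and 3.36 CPM in young and 0.333 and 0.654 CPM in old ETP, from 102, 21, 4 and 3 fragments. The old libraries thus stood at or near the level of 3 fragments. The ratio of means was 9.46, and the ratio of pooled fragments was 12.5 with a 95% counting interval from 5.90 to 31.8 (exact binomial). This interval covers counting error only and leaves out the spread between libraries. It is no test, because Bcam was chosen for its direction. Leaving out old replicate 2 raised the ratio of means to 14.4. The 235 bases upstream (chr7:19770548-19770782, minus strand) are shown as the window with the highest GC content of the set, 71% over its 300 bases, and hold none of the searched motifs other than in the part after them.
Bcam promoter: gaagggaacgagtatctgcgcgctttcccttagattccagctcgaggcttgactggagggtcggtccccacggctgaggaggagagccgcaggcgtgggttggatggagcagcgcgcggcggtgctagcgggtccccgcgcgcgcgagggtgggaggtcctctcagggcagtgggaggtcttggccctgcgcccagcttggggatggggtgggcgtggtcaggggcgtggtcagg

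The alpha chains of laminin were low. Of 20 laminins and laminin receptors 6 were tested, and none of the alpha chains was among them. Lama5 was at 0.351 and 0.801 CPM in young and 0.333 and 2.18 CPM in old ETP. The gamma chain Lamc1 was at 53.9 and 60.1 CPM in young and 45.7 and 23.3 CPM in old ETP (log2 fold change 0.71), and the receptor Dag1, dystroglycan, had 0.40. edgeR and DESeq2 called 0 of the 6, and 0 had an unadjusted p under 0.05. Alcam, a relative of Bcam that binds CD6, overlapped between the ages at 52.6 and 97.9 CPM in young and 46.0 and 178.9 CPM in old ETP.

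Gucy1a3, named Gucy1a1 in the later annotation, lies at chr3:82092427-82145789 on the minus strand. With a beta subunit it forms the enzyme that makes cGMP in answer to nitric oxide. Levels were 14.7 and 32.4 CPM in young and 3.24 and 4.79 CPM in old ETP, from 252, 202, 39 and 22 fragments. The young libraries differed by 2.19 times, the most of the 9 genes, and even the lower one was 3.08 times the higher old library. The log2 fold change was 2.57 ± 0.54, the largest of the 7 tested, and the ratio of means was 5.86. Leaving out young replicate 2 brought the fold to 3.72.

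The beta subunit that pairs with Gucy1a3, Gucy1b3, was at 2.05 and 2.08 CPM in young and 0.249 and 0.654 CPM in old ETP. It had the same order of ages at a much lower level, and the old values rest on 3 fragments per library. Per length it stood at 0.259 FPKM in young ETP, beside 1.83 FPKM for Gucy1a3. The other alpha subunit, Gucy1a2, had 3 fragments in all. Of the 18 genes of cGMP signalling other than Gucy1a3, 5 were tested and their median log2 fold change was -0.46. edgeR and DESeq2 called 0 of them. Vasp, an actin regulator that cGMP-dependent kinase phosphorylates, was the 1 gene with an unadjusted p under 0.05, at 40.8 and 32.2 CPM in young and 63.3 and 75.8 CPM in old ETP (-0.93). Pde5a, the cGMP phosphodiesterase, was at 14.98 and 26.0 CPM in young and 8.81 and 13.7 CPM in old ETP (0.87). The nitric oxide synthases Nos1 and Nos2 had 0 fragments.

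Cdc42bpa, at chr1:179960472-180165603 on the plus strand, encodes the kinase MRCK alpha, which binds active CDC42 and acts on myosin during cell movement. The gene was at 35.1 and 47.7 CPM in young and 11.2 and 14.2 CPM in old ETP, from 600, 298, 135 and 65 fragments. In both ages replicate 2 was the higher library, by 1.36 and 1.26 times. Young over old, the log2 fold change was 1.71 ± 0.35 and the ratio of means 3.26. Its paralog Cdc42bpb, which encodes MRCK beta, had the reverse order, at 1.40 and 3.36 CPM in young and 12.8 and 42.0 CPM in old ETP. Cdc42bpb did not pass the filter. With a lower filter of 0.5 FPKM in 1 library its log2 fold change was -3.55 ± 0.78 (adjusted p = 0.369, edgeR), and with no filter it passed with an adjusted p of 6.1e-09. Per length, Cdc42bpa was above Cdc42bpb in young ETP (1.80 against 0.125 FPKM) and below it in old ETP (0.455 against 1.15 FPKM). The third paralog, Cdc42bpg, overlapped between the ages at 3.63 and 5.29 CPM in young and 4.74 and 5.66 CPM in old ETP.

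The remaining CDC42 genes had other values than Cdc42bpa. Of 19 tested kinases and effectors, 0 had both young libraries above both old ones and 7 had the reverse, beside 15.5% and 16.1% of all genes. The median log2 fold change was -0.23, and edgeR and DESeq2 called 0. Pak1, a kinase that CDC42 activates, was at 121.1 and 141.0 CPM in young and 197.1 and 444.2 CPM in old ETP (log2 fold change -1.29, unadjusted p = 0.0279). Myl12b, a regulatory myosin light chain and the gene of the list with the highest level, had -0.61.

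Rftn2, at chr1:55170159-55226782 on the minus strand, encodes raftlin 2, a lipid-anchored protein of membrane rafts. It was at 10.3 and 8.49 CPM in young and 0.665 and 1.09 CPM in old ETP, from 176, 53, 8 and 5 fragments. The ages were the farthest apart of all 9 genes. The ratio of means was 10.7, and pooled fragments gave 12.5 with a 95% counting interval from 7.19 to 23.9. As for Bcam, that interval covers counting error only and is no test of a gene chosen for its direction. Its paralog Rftn1, raftlin 1, showed no such separation, with 46.0 and 31.4 CPM in young and 41.5 and 30.3 CPM in old ETP (log2 fold change 0.11 ± 0.34, adjusted p = 0.999, edgeR). Per length Rftn1 was the higher paralog at both ages, at 5.98 FPKM in young and 4.46 FPKM in old ETP. Of 11 tested lipid raft proteins, 1 had both young libraries higher and 2 both old libraries higher, near the 15.5% and 16.1% of all genes, with a median of 0.005. edgeR and DESeq2 called 0, and Stom, which encodes stomatin, was the only one with an unadjusted p under 0.05 (10.7 and 9.61 CPM in young, 19.5 and 47.7 CPM in old ETP, -1.71).

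**Figure D3:**
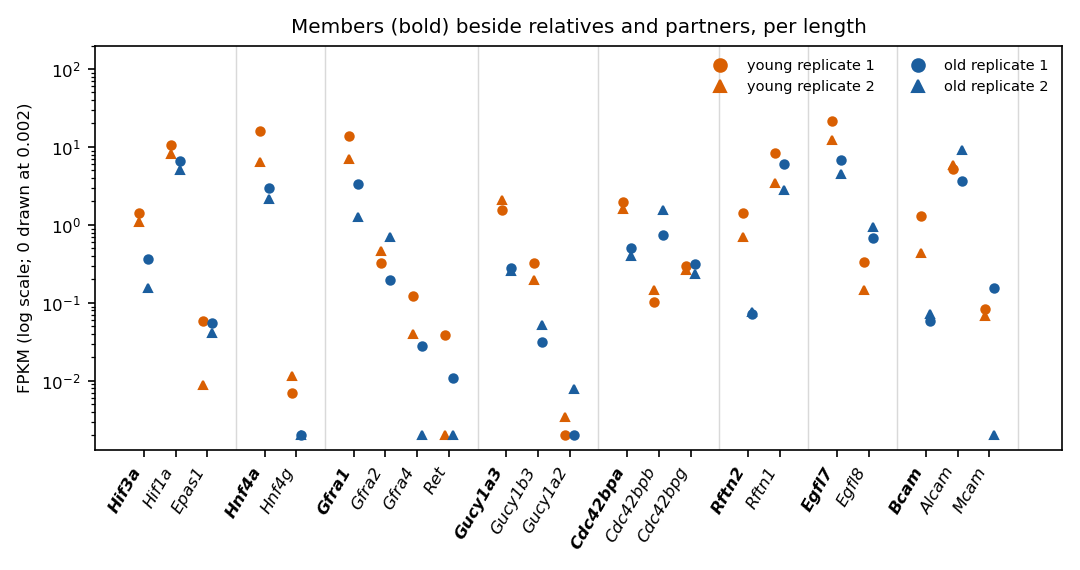
FPKM on a log scale, with 0 drawn at 0.002, for 8 of the 9 genes (bold) beside their relatives and partners in each library, with young in orange and old in blue. Hif1a, Rftn1 and Alcam lie above Hif3a, Rftn2 and Bcam at both ages, Cdc42bpb lies below Cdc42bpa in the young and above it in the old libraries, and Gucy1b3 lies below Gucy1a3 in every library.

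The medians of the lists around the genes lay on both sides of 0. The tested median was above 0.1 for the HNF4 partners (0.11), the SET and PP2A genes (0.12), the stem cell and leukaemia genes (0.34) and the 3 endothelial markers (0.48), and below -0.4 for the cGMP list (-0.46) and the EGFL7 and Notch list (-0.55). Of these, the EGFL7 and Notch median moved to 0.08 without old replicate 1 and the HNF4 median to -0.03 without young replicate 1. With no filter on low values the HNF4 median was 0.94. The cGMP median was -0.12 with a filter of 0.5 FPKM in 1 library. The endothelial median moved to 1.05 without old replicate 1 and to 0.09 without old replicate 2, and the SET and PP2A median to 0.007 without old replicate 2. The dendritic and NK markers were far lower in young ETP, with medians of -3.04 and -2.79 that came to -1.91 and -1.52 without old replicate 2, and here DESeq2 called 8 and 5 genes higher in old whereas edgeR called 0 and 0.

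**Figure D4:**
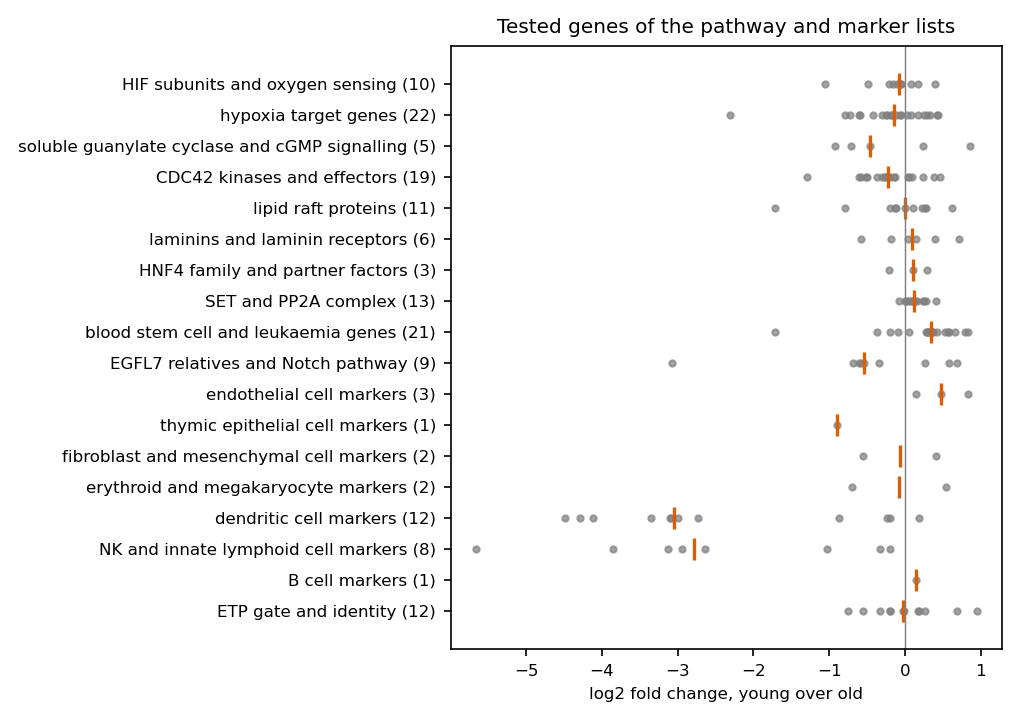
Log2 fold change of young over old for each tested gene (grey) of the lists around the 9 genes and of other cell types, with the number of tested genes in brackets and the median as an orange bar. Most medians lie near 0, and those of dendritic (-3.04) and NK markers (-2.79) lie far on the side of old ETP.

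Within an age, the 9 genes did not share an order of the libraries. In young ETP, replicate 1 was higher for 5 genes (Hnf4a, Egfl7, Gfra1, Bcam and Rftn2) and replicate 2 for 4 (Hif3a, Setbp1, Gucy1a3 and Cdc42bpa). In old ETP, replicate 1 was higher for 2 genes (Hif3a and Gfra1) and replicate 2 for 7. The median absolute log2 difference between replicates was 0.44 in young and 0.45 in old for the 9 genes, beside 0.37 and 0.45 for all tested genes. Before these differences and the following distances, a small constant was added to each CPM, which shrinks differences of genes with few fragments. The profiles of Setbp1 and Cdc42bpa were closest to each other, at a root mean square distance of 0.21 on the log2 scale over the 4 libraries after centring, followed by Hif3a and Gfra1 at 0.22. Egfl7 and Rftn2 were the farthest apart, at 0.83.

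Among all tested genes that are no members, the profile most like Hif3a was that of Gm5111, at a distance of 0.08, and Gm5111 was also the closest to Gfra1 (0.15). Igf2bp3, which encodes an RNA-binding protein of fetal cells, was the closest to both Bcam (0.15) and Rftn2 (0.34). It was at 172.1 and 111.5 CPM in young and 27.4 and 29.2 CPM in old ETP. The means of Igf2bp3 had a ratio of 5.02, against 9.46 for Bcam and 10.7 for Rftn2, so this closeness depends on the constant added to CPM. Ptk7 was closest to Egfl7 (0.11), Gprin3 to Cdc42bpa (0.13), Mpped2 to Setbp1 (0.16), Ppp1r9a to Hnf4a (0.24) and Plag1 to Gucy1a3 (0.29). These distances rest on 4 libraries and describe likeness of levels alone.

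With each library left out in turn, the sign of the 9 estimates was fixed by the choice of the genes. Their size is not independent of that choice either, because the genes were picked from these same libraries. Each of the 9 had a gap of at least 2.31 times, which their choice favoured. Of 10080 tested genes, 22 (0.218%) reached 2 times. The 7 tested members are among those 22, and Bcam and Rftn2 were not tested. The values therefore describe only how far each estimate moved. The estimates ran from 1.22 (Egfl7 without old replicate 1, and Setbp1 without young replicate 2) to 3.85 (Rftn2 without old replicate 2). Without old replicate 2, the library with the highest dendritic and NK marker levels, the values were between 1.30 for Egfl7 and 3.85 for Rftn2, with 1.83 for Hif3a and 1.63 for Gfra1.

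**Figure D5:**
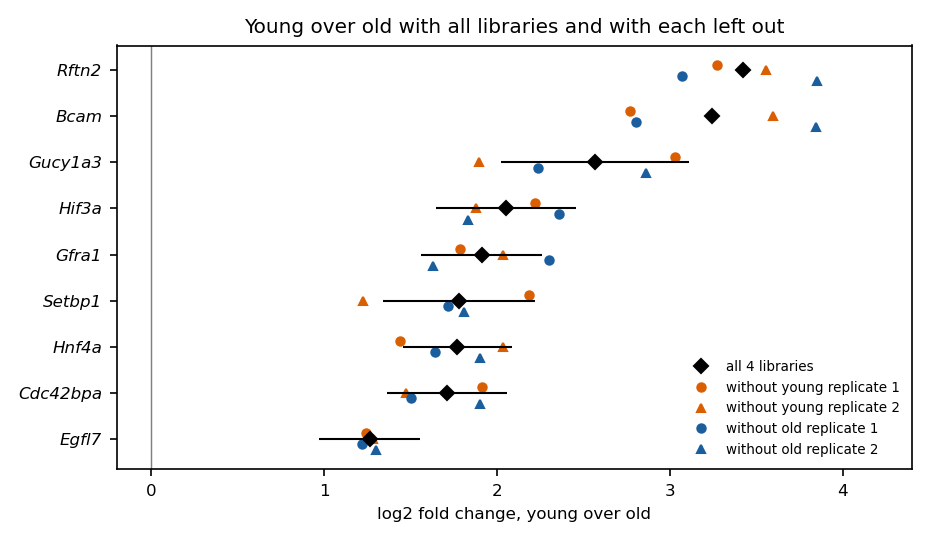
Log2 fold change of young over old for each gene with all 4 libraries (black diamond, with the SE as a bar for the 7 tested genes) and with each library left out (orange for a young and blue for an old library). Egfl7 varies least, from 1.22 to 1.30, while Gucy1a3 runs from 1.89 to 3.03 and Bcam from 2.77 to 3.84.

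The genes lie on 6 chromosomes. Hif3a and Bcam are 2.72 Mb apart on chromosome 7, Cdc42bpa and Rftn2 125 Mb apart on chromosome 1, and Hnf4a and Egfl7 137 Mb apart on chromosome 2. Of 9 genes 7 span more than the 23.2 kb median of tested genes, up to 359 kb for Setbp1. Among the closest tested genes on either side, 3 of 18 were higher in both young libraries, 4 were higher in both old libraries and 11 overlapped, beside 15.5% and 16.1% of all tested genes for the former orders, so these counts were near the background. Their median log2 fold change was 0.29. They lay from 3.58 kb (Ppp5c) to 1809 kb (Pglyrp1) away, both from Hif3a, so not all were local. Notch1, 63.4 kb from Egfl7, was one of the 3, together with Ahctf1, 157 kb from Cdc42bpa, and Mars2, 10.4 kb from Rftn2. Strand use in counting is unknown here, so fragments cannot be told apart where exons overlap, which holds for 264 bases of Egfl7 and Gm20532 on the same strand, and, on opposite strands, for 64 bases of Egfl7 and Agpat2, 366 bases of Cdc42bpa and Adck3, 98 bases of Cdc42bpa and Gm38331, 52 bases of Bcam and Gm26600, 416 bases of Gfra1 and the antisense gene Gm16277, and 500 bases of Rftn2 and Gm10561. The hairpins of miR-126a and miR-126b also share 73 and 58 exonic bases with Egfl7, and a miRNA gene shares 1 base with Gucy1a3. Agpat2 and Adck3 each overlapped between the ages, with log2 fold changes of 0.31 and 0.21.

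RefSeq windows from 250 bases before to 50 bases after a start were at hand for 7 of the 9 genes, 12 windows in all. Their median GC content was 58.7%, beside 52.7% over all 32851 windows, and their median number of CpG was 11.5 beside 7. Across both strands, the GC box GGGCGG was in 4 of the 12 windows (35.7% of all windows), the ETS letters GGAAGT in 4 (23.8%), the RBPJ letters TGGGAA in 2 (25.6%) and the RUNX letters TGTGGT in 2 (16.8%). The GATA letters AGATAA were in 1, at the first start of Hnf4a (11.2%), the TCF letters CTTTGA in 1 (16.0%), the hypoxia response core ACGTG in 1, at the second start of Gucy1a3 (19.6%), the E-box CANNTG in 8 (72.3%) and the TATA letters TATAAA in 0 (13.6%). The second start of Gucy1a3 also held 4 of the RBPJ matches. With 12 windows of 7 genes, several of them from a single gene, these counts are a description and no letters were shared by all of the genes.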

How the data were processed

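Sorted ETP gave RNA for paired-end libraries, amplified with a Nugen Ovation kit. The authors aligned reads with STAR 2.3.0 to GRCm38 (mm10). According to the submitters' processing notes, DESeq 1.12.1, HTSeq 0.5.4p3, Cuffdiff and Cufflinks 2.1.1 were used as well. The deposited table holds, per gene and library, the estimated counts of fragments the authors assigned and their FPKM, scaled by transcript length and depth. Its internally scaled fragments were not used. Between 95.7% and 96.1% of the estimated counts were whole within 1e-06, and they were rounded. Strand and the treatment of multiply aligned reads in counting are not given in the sources used here. Rows carry the condition and a replicate number, so libraries were assigned to an age, and replicates 1 and 2 follow the table's numbers. The table names the old condition 20m, beside the 72 weeks of the labels that are used here, and which of them is right was not settled.

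Genes with at least 1 FPKM in at least 2 of 4 libraries (10080) were compared with edgeR 4.0.16 in R 4.3.3 (TMM, quasi-likelihood test with age alone in the model, Benjamini-Hochberg, threshold 0.05). The fit was also run on simulated data with the same spread for every gene, which does not give its power in these libraries. Positive log2 values mean higher in young. The SE is the absolute log2 fold change divided by the square root of the quasi-likelihood F statistic. Its variance is moderated across genes, so the SE is not the spread of 1 gene's libraries alone. Bcam and Rftn2 failed the filter, so their ratio of mean CPM on the same library sizes is given. Young replicates 1 and 2 held 16658864 and 6414915 fragments, old replicates 11816478 and 4839341. Alternatives were DESeq2 1.42.0, median-of-ratios scaling, other filters, limma 3.58.1 on log2 FPKM with 2 pseudocounts, the replicate number as a block and each library left out, and the ratio of mean FPKM was added after the data were seen. Fits without a library take the spread of the remaining one of that age from the other age.

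The 9 genes and the lists were chosen with earlier results of these data known. Named genes were the 9, their paralogs, from each list the 2 tested genes with the smallest p and the one with the highest FPKM, the gene with the closest profile and the nearest tested neighbours. Other genes, such as defining markers at 0, were named after their values were seen. Positions are from GENCODE vM21 and promoter and miRNA sequences from RefSeq (GRCm38.p6). Setbp1 and Rftn2 had no window. Motif letters were searched on both strands. Some genes of the lists are not reported here.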

Additional observations from a re-analysis of the deposited data

How the results depend on the processing

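The 93 values of the 9 genes under the alternatives ran from 0.74 to 3.85 on the log2 scale, with a sign that the choice of the genes fixed. Of these, 79 moved by less than 1 SD of the replicates and 14 by more, and the lowest came from limma on log2(FPKM + 1), which understates changes of low genes. That fit lowered the log2 value from 2.05 to 0.85 for Hif3a, 1.78 to 0.74 for Setbp1, 2.57 to 1.15 for Gucy1a3 and 1.71 to 0.94 for Cdc42bpa. With a library left out, the fold was the fitted one for the 7 tested genes and the ratio of means for Bcam and Rftn2. It moved by over 1.5 times only for Bcam without old replicate 2 and Gucy1a3 without young replicate 2. Counts over all genes depended strongly on the fit. edgeR called 0 genes in each direction, DESeq2 called 15 higher in young and 210 higher in old, edgeR without a filter on low values 34 and 474, and edgeR with the replicate block 199 and 578. Leaving out 1 library gave 0 to 3 genes higher in young and 0 to 218 higher in old, with the highest of both without old replicate 1. Over the lists, genes called higher in young were 0, with no filter 1, with the replicate block 9 and with a library left out 0, and genes called higher in old were 0, 28 with no filter, 28 with the replicate block, 14 with DESeq2 and 0 to 14 with a library left out, with 14 without old replicate 1. The cause of these differences was not tested. The labels do not say that replicate numbers pair libraries. The difference between replicates 1 and 2 in young and in old ETP had a Pearson r of 0.73 across 10080 genes, which are not independent, with only 2 pairs and with replicate 1 the deeper library at both ages. With 2 libraries per age, at 4839341 fragments in the shallowest, old levels of Bcam and Rftn2 rest on 3 to 8 fragments per library. On the FPKM scale the median log2 fold change of all tested genes was 0.27 in place of 0.03, so list medians near 0 depend on the scale.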
